A study of Mus musculus with 28 samples.

Results

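The genes described here are the 4 Robo receptor genes Robo1, Robo2, Robo3 and Robo4 and the 3 srGAP genes Srgap1, Srgap2 and Srgap3 of the mouse. They are all the Robo and srGAP genes of the Slit-Robo pathway, a rule that uses names and no measured value, although the pathway was picked with earlier results of these data known. They are 7 of the 52636 genes in the count tables. All 7 had enough fragments to be tested. RNA came from tissue punches of the ventromedial prefrontal cortex of 28 female mice, 1 library per mouse, in 4 groups of 7. The groups were mice given the virus labelled Slit1 knockdown and stressed (KD stressed), the same virus without stress (KD unstressed), the control virus labelled Lac_Z and stressed (LacZ stressed) and the control virus without stress (LacZ unstressed). Stress was 3 days of the procedure that the labels call sCVS. Every mouse carried a virus, so no group shows uninfected tissue, and the labels give neither the cell type in which the virus is active nor the share of cells it reached. Strain and age are not given in the labels used here. The series title places the question as a role of Slit1 in stress susceptibility that differs by sex, and only females were measured in the libraries used here.

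Slit proteins are secreted guidance cues. Robo proteins are a family of transmembrane receptors, of which Robo1 and Robo2 bind Slits. Srgap1, Srgap2 and Srgap3 encode Slit-Robo GTPase-activating proteins: they bind the intracellular part of Robo receptors through an SH3 domain, switch off small GTPases, and bend membranes through an F-BAR domain. Robo1 and Robo2 are the main neuronal Slit receptors. Robo3 is best known from commissural axons, where it controls midline crossing, and Robo4 from the endothelium of blood vessels. Srgap2 is known for its part in spine maturation and neuronal migration in the cortex. In bulk tissue, fewer cells of a type and less RNA per cell cannot be told apart.

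Fragments were counted over the whole span of each gene, introns included, so the gene models matter for what a level means. Robo1 (ENSMUSG00000022883) was counted over chr16:72663149-73046095 on the plus strand and Robo2 (ENSMUSG00000052516) over chr16:73892306-74411825 on the minus strand (GRCm38). These spans hold 37.5% of the Robo1 locus and 33.4% of the Robo2 locus as RefSeq draws them, because RefSeq gives long upstream transcripts of both. Fragments from introns before the counted starts are therefore not in the levels. RefSeq lists 3 starts of Robo2, of which 2 lie 680.9 and 1035 kb before the counted span. Robo3 (ENSMUSG00000032128, chr9:37415669-37433246, minus strand) and Robo4 (ENSMUSG00000032125, chr9:37401897-37415115, plus strand) face each other, with 553 bp between their ends. Srgap1 (ENSMUSG00000020121) lies at chr10:121780991-122047315, Srgap2 (ENSMUSG00000026425) at chr1:131285251-131527352 and Srgap3 (ENSMUSG00000030257) at chr6:112717971-112947266, all on the minus strand. For Srgap1, Srgap2, Srgap3, Robo3 and Robo4 the counted span held at least 98.9% of the RefSeq span. Exons made up 39.0% of the span of Robo3 and 40.1% of that of Robo4. In the 5 long genes they made up between 3.18% (Robo2) and 5.19% (Srgap2), so the counts of those genes can hold many intronic fragments. Other genes overlapped at most 2.59% of a span, that of Srgap2.

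The 250 bases before 3 starts of Robo1 and Robo2 are shown because these genes have the most incomplete counted spans and moved together over the libraries and because the starts differ in CpG content. They are from RefSeq (GRCm38.p6), in which all 7 genes were found, and are written 5′ to 3′ on the gene's own strand with CpG sites in capitals. The Robo1 window is chr16:72662899-72663148 (plus) and ends where the counted span begins. The first Robo2 window is chr16:74411826-74412075 (minus), at the counted start, and the second is chr16:75092771-75093020 (minus), at the start 680.9 kb upstream.
Robo1, counted start: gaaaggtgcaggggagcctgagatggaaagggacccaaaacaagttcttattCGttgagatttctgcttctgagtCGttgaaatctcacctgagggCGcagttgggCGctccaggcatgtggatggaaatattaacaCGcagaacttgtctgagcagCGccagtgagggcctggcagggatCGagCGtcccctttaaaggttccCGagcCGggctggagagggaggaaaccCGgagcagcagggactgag
Robo2, counted start: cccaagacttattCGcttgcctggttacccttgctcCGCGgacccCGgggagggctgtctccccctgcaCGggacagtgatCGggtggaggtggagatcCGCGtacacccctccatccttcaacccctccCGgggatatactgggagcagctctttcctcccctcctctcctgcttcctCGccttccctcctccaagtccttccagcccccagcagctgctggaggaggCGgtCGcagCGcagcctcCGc
Robo2, upstream start: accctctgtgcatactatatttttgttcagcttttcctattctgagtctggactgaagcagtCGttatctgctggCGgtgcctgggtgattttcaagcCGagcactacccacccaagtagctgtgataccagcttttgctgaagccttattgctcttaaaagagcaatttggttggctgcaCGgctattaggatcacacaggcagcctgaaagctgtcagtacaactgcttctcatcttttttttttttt
The counted start of Robo2 had 14 CpG sites and 65.6% GC, the upstream start 4 sites and 44.8%, and the counted start of Robo1 11 sites and 56% GC. The medians over 32851 RefSeq windows were 6 sites and 52.4% GC. Among the other genes, Srgap1 stood out with 35 CpG sites and 76.4% GC, more sites than 97.0% of windows, and Robo4 had 2 sites and 49.6%. The GC box GGGCGG matched, on either strand, 3 times before Robo3 (2 of them overlapping), 3 times before Srgap1, 2 times before Srgap2 and 1 time before Srgap3, and 32.7% of all windows held it. It matched in none of the Robo1, Robo2 and Robo4 windows. The ETS core CCGGAA, held by 12% of windows on either strand, matched before none of the 7 genes. The TATA box TATAAA, held by 12.4% on either strand, matched before Srgap3 alone among the 7. These are letter matches in these windows, not measured sites.

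Totals over the 28 libraries ran between 30.6 and 44.3 M counted fragments (median 39.6 M). Scaling by trimmed mean of M-values (TMM) used factors between 0.619 and 1.26, and levels below are TMM-scaled counts per 1 M fragments (CPM) unless said otherwise. No pair of libraries held identical values. The targeted gene did not separate by label: Slit1 had a median of 13.0 CPM in KD stressed libraries (7.48 to 30.9) and 13.5 CPM in LacZ stressed libraries (9.28 to 33.9). Without stress its median was 21.4 CPM in KD libraries (9.48 to 59.9) and 16.9 CPM in LacZ libraries (12.6 to 56.3). Over both states its log2 fold change was -0.02 ± 0.30 (SE), with a 95% confidence interval between -0.64 and 0.60. Exons made up 4.13% of the counted span of Slit1, so its counts can hold many intronic fragments. Whether its mature RNA alone was lowered was not tested. Directions for the knockdown therefore rest on the label alone. The tissue label was checked against markers: the 13 excitatory neuron genes summed to between 809 and 1858 CPM in every library. Striatal genes, which mark tissue beyond the cortex, summed to between 253 and 809 CPM, the highest in KD stressed replicate 7. Gfap, P2ry12, Itgam, Dlx1 and Gpr17 were listed at 0 in every library. Fragments were counted over whole spans with no strand option, and whether these zeros mean absent RNA was not tested. The sample number in the titles split the libraries: 10608 of 19171 genes (55.3%) differed between the 13 libraries numbered above 20 and the 15 others with the groups held (edgeR quasi-likelihood test, adjusted p under 0.05). No label says what the number marks. Above 20 were 3 KD stressed, 5 KD unstressed, 3 LacZ stressed and 2 LacZ unstressed libraries.

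Among the receptors, Robo1 and Robo2 made up nearly all fragments, and among the srGAP genes Srgap2 and Srgap3 did. Robo2 took 65.6% ± 5.79 of the Robo fragments (SD, n = 28), Robo1 33.6% ± 5.59, Robo3 0.594% ± 0.515 and Robo4 0.246% ± 0.170. Srgap2 took 56.4% ± 9.08 of the srGAP fragments, Srgap3 38.4% ± 8.61 and Srgap1 5.25% ± 1.33 (SD, n = 28). These shares are not corrected for length, and a gene with a longer span collects more fragments. Per kb of counted span the order was Srgap2 (1.33 CPM per kb), Robo2 (1.04), Srgap3 (0.958), Robo1 (0.689), Robo3 (0.225), Robo4 (0.122) and Srgap1 (0.114). Srgap2 exceeded Robo2 in 24 of 28 libraries, with a mean log2 ratio of 0.44 ± 0.38 (SD). Robo1 exceeded Robo3 in 26 of 28 libraries, with a mean log2 ratio of 1.82 ± 1.22. The other 4 neighbours in this order did not differ beyond their spread. Robo2 exceeded Srgap3 in 15 of 28 libraries and Robo4 exceeded Srgap1 in 15 of 28. Srgap3 exceeded Robo1 in 22 and Robo3 exceeded Robo4 in 23 of 28, with mean log2 ratios smaller than their SD. The order depends on the length used: per kb of exon, Srgap1 averaged 3.31 CPM per kb, above Robo3 at 0.577 and Robo4 at 0.304. The top of the order turned as well, with Robo2 at 32.7 and Srgap2 at 25.7 CPM per kb of exon.

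**Figure D1:**
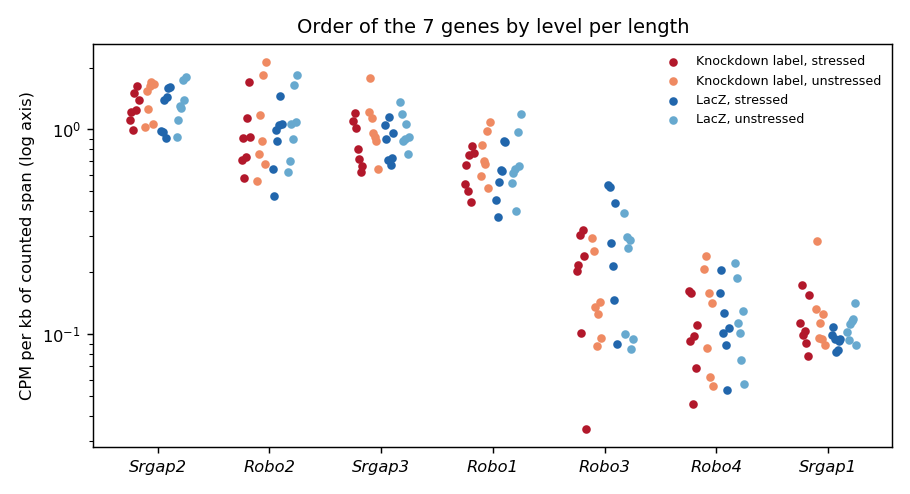
Level of each gene in CPM per kb of counted span, on a log axis, with 1 point per library coloured by group, genes ordered by their mean. Srgap2, Robo2, Srgap3 and Robo1 averaged between 0.689 and 1.33 CPM per kb, and Robo3, Robo4 and Srgap1 between 0.114 and 0.225.

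The genes differed in how far the libraries spread. Srgap2 varied least, between 220.5 and 434 CPM, with a coefficient of variation of 20.7%. Robo3 varied most, between 0.608 CPM in KD stressed replicate 7 and 9.38 CPM in LacZ stressed replicate 1, a 15.4-fold range with a coefficient of variation of 59.2%. Robo4 had between 14 and 154 fragments per library and Robo3 between 24 and 460. Counting error at the median count was 13.3% for Robo4 and 8.19% for Robo3, against coefficients of variation of 45.2% and 59.2%. For the other 5 genes counting error was at most 3.06%. In all 7 genes it was well below the coefficient of variation, so most of the spread lies between libraries.

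The virus comparison asked whether the receptors and effectors differed under the Slit1 knockdown label. None of the 7 genes was called in stressed mice, in unstressed mice or over both, and neither was any other gene (0% of 19171 tested, edgeR quasi-likelihood test with Benjamini-Hochberg adjustment). At an unadjusted p under 0.05 there were 0 of 7 genes in each, beside 0.824% of all genes with stress, 0.897% without and 1.52% over both. With 2 surrogate variables Robo1 had a log2 fold change of 0.20 over both states (unadjusted p = 0.0417, adjusted p = 0.844 by edgeR), against 0.07 without them, beside 1123 of all genes under 0.05. Srgap1 was the srGAP gene with the most positive estimate. It had 20.9, 27.7 and 46.4 CPM (lowest, median, highest) in KD stressed libraries and 21.7, 25.2 and 29.0 CPM in LacZ stressed libraries. Without stress it had 23.7, 30.3 and 75.9 CPM in KD libraries and 23.7, 30.0 and 37.9 CPM in LacZ libraries. The groups overlapped in both states, and 3 of the 7 KD stressed libraries lay above every LacZ stressed one. Over both states its log2 fold change was 0.29 ± 0.15 (SE), with a 95% confidence interval between -0.01 and 0.60 (unadjusted p = 0.0603, adjusted p = 1 by edgeR). Without KD unstressed replicate 2, the library at 75.9 CPM, it was 0.14, and its unadjusted p was under 0.05 with 6 other libraries left out 1 at a time (0.0312 to 0.0472).

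Robo3 had the most negative estimate. It had 0.608, 3.81 and 5.67 CPM in KD stressed libraries and 1.58, 4.87 and 9.38 CPM in LacZ stressed libraries. Without stress it had 1.55, 2.38 and 5.16 CPM in KD libraries and 1.48, 4.61 and 6.83 CPM in LacZ libraries. The ranges overlapped, and 9 of the 14 KD libraries lay below the LacZ mean. The log2 fold change over both states was -0.53 ± 0.32 (SE), with a 95% confidence interval between -1.18 and 0.13 (unadjusted p = 0.111, adjusted p = 1 by edgeR), and it was -0.30 with the sample number above 20 as a covariate, a move of over 1.5 times. Both other srGAP genes had estimates near 0: Srgap2 had 0.04 ± 0.12 (SE) and Srgap3 0.04 ± 0.14 on the log2 scale. Their 95% intervals ran between -0.21 and 0.30 for Srgap2 and between -0.25 and 0.32 for Srgap3. For Robo1, Robo2 and Robo4, in that order, the intervals ran between -0.26 and 0.40, between -0.42 and 0.48 and between -0.56 and 0.48. The median over the 7 genes was 0.04 beside -0.02 over all genes tested.

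**Figure D2:**
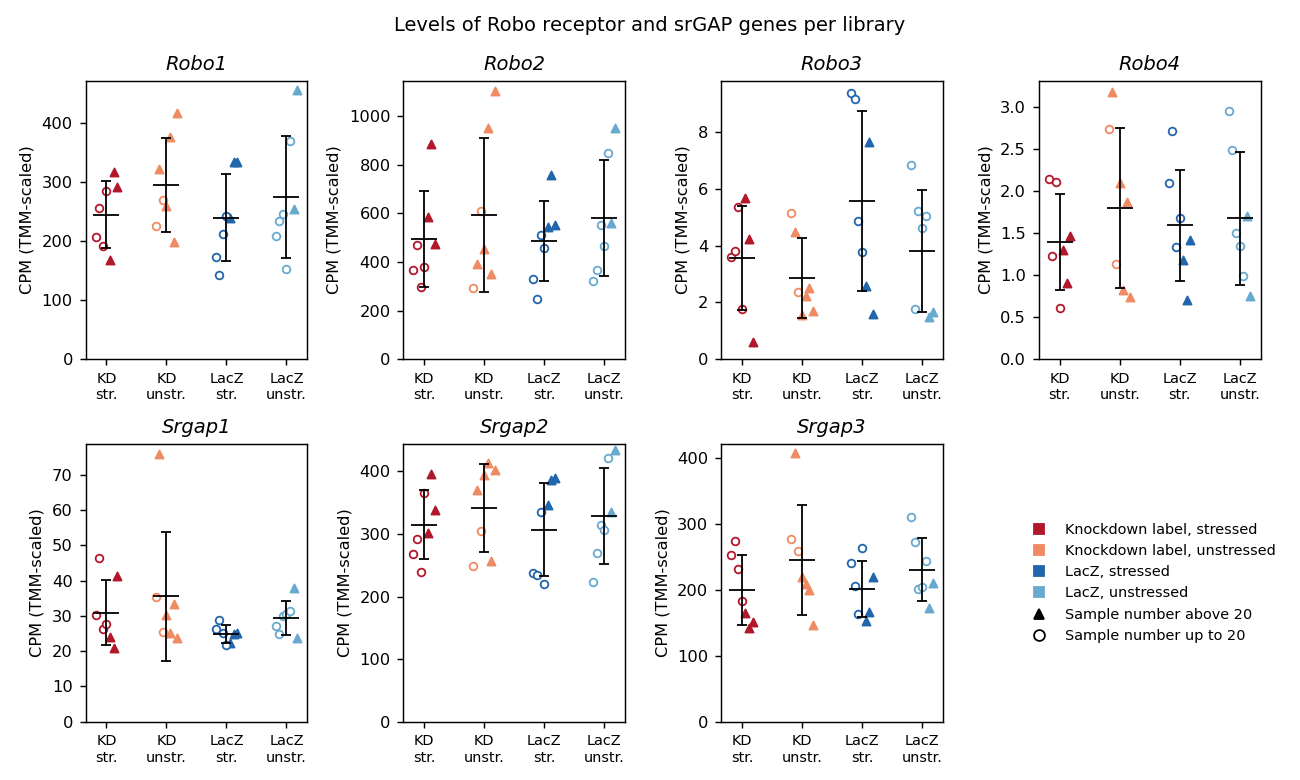
TMM-scaled CPM of each gene in every library, by group, with 1 point per mouse, bars at the mean ± SD (n = 7), and triangles for libraries with a sample number above 20. The 4 groups overlap for all 7 genes, and Srgap1 in 1 KD unstressed library reaches 75.9 CPM.

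The stress comparison asked whether 3 days of stress went with a different level. None of the 7 genes was called with either virus or over both, and 0% of all genes were (same test). DESeq2 also called 0 genes in each of these comparisons and those of the virus, with between 73 and 606 genes at an unadjusted p under 0.05 over all comparisons. At an unadjusted p under 0.05 there were again 0 of 7 genes in each, beside 1.79% of all genes with the knockdown label, 0.402% with LacZ and 2.21% over both. That count depended on the covariates. With 2 surrogate variables Srgap3 and Robo4 had unadjusted p = 0.0148 and 0.0479 over both viruses, beside 1726 of all genes under 0.05, and 0.0367 and 0.033 with the knockdown label, beside 1442 genes. With the sample number as a covariate Srgap3 had unadjusted p = 0.028 over both viruses and 0.0232 with the knockdown label, beside 534 and 536 genes. The smallest adjusted p of these was 0.555 by edgeR. Of the 7 genes, 6 had estimates below 0 with both viruses, and Robo3 lay above 0. The median log2 fold change of the 7 was -0.26 with the knockdown label and -0.20 with LacZ, beside -0.01 over all genes tested in each. Of all genes tested, 53.7% lay below 0 over both viruses.

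Srgap3 had the smallest p of the 7 for stress over both viruses and with the knockdown label, and Robo3 had it with LacZ (unadjusted p = 0.233, adjusted p = 1 by edgeR). With the knockdown label Srgap3 had 142, 183.5 and 275 CPM (lowest, median, highest) in stressed libraries and 147, 219.8 and 409 CPM in unstressed ones. With LacZ it had 153, 205 and 264 CPM in stressed libraries and 173, 209.9 and 311 CPM in unstressed ones. The groups overlapped, and 9 of the 14 stressed libraries lay below the unstressed mean. The log2 fold change over both viruses was -0.25 ± 0.14 (SE), with a 95% confidence interval between -0.53 and 0.04 (unadjusted p = 0.0869, adjusted p = 1 by edgeR), and it was -0.16 without KD unstressed replicate 2. Srgap1 lay below the unstressed mean in 12 of 14 stressed libraries, and in 7 of 7 with LacZ. Its log2 fold change was -0.22 ± 0.15 (unadjusted p = 0.154, adjusted p = 1 by edgeR), and -0.07 without KD unstressed replicate 2. Srgap2 had 239.9, 301.5 and 396 CPM in KD stressed libraries and 248.5, 371 and 414 CPM in KD unstressed ones. With LacZ it had 220.5, 335 and 389 CPM in stressed libraries and 223, 315 and 434 CPM in unstressed ones. The ranges overlapped in all 4 groups, and its stress log2 fold change was at -0.11 ± 0.12 (SE) on the log2 scale, and at -0.07 without LacZ unstressed replicate 7.

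Among the receptors, Robo1 had 168, 256 and 317 CPM in KD stressed libraries and 198, 269 and 417 CPM in KD unstressed ones. With LacZ it had 143, 239 and 335 CPM in stressed libraries and 153, 245 and 456 CPM in unstressed ones. Robo2 had 299, 471 and 887 CPM in KD stressed libraries and 291, 455 and 1103 CPM in KD unstressed ones. With LacZ it had 247, 513 and 758 CPM in stressed libraries and 322, 554 and 954 CPM in unstressed ones. For both genes the highest library of the pair was an unstressed one with either virus, and the ranges overlapped. Over both viruses the stress log2 fold change was -0.23 ± 0.16 (SE) for Robo1, -0.26 ± 0.22 for Robo2, -0.22 ± 0.25 for Robo4 and 0.44 ± 0.32 for Robo3. Without LacZ unstressed replicate 7 the Robo1 value was -0.15, and without KD unstressed replicate 7 the Robo2 value was -0.14. The Robo4 value was -0.12 both without KD unstressed replicate 2 and without LacZ unstressed replicate 1. With 2 surrogate variables the estimate was -0.10 for Robo1 and -0.08 for Robo2. Robo4 had 0.602, 1.296 and 2.15 CPM in KD stressed libraries and 0.738, 1.87 and 3.18 CPM in KD unstressed ones. With LacZ it had 0.706, 1.42 and 2.72 CPM in stressed libraries and 0.751, 1.498 and 2.95 CPM in unstressed ones, again overlapping.

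The interaction asked whether the stress difference itself differed between the viruses. It was not detectable for any of the 7 genes (edgeR called 0 of the 7 and 0% of all genes, and 0 of 7 at an unadjusted p under 0.05 beside 0.355% of all genes). Estimates ran between -0.30 ± 0.51 (SE) for Robo4 and 0.04 ± 0.30 for Srgap1 on the log2 scale. The Robo4 value was -0.10 without KD unstressed replicate 2 and -0.49 without LacZ unstressed replicate 1, and the Robo3 value of -0.23 ± 0.64 was -0.018 without KD unstressed replicate 1 and -0.43 without LacZ unstressed replicate 1. The Srgap1 value was 0.34 without KD unstressed replicate 2. The widest 95% interval, that of Robo3, ran between -1.54 and 1.08, and the narrowest, that of Srgap2, between -0.52 and 0.48.

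**Figure D3:**
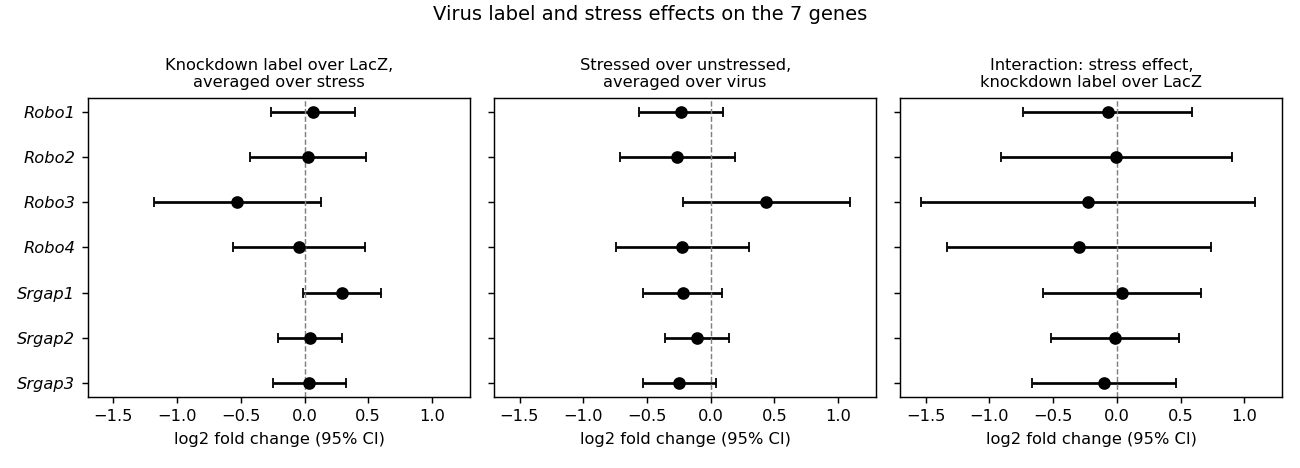
Log2 fold change with its 95% confidence interval for each gene: knockdown label over LacZ averaged over stress (left), stressed over unstressed averaged over virus (middle) and the interaction (right). All 21 intervals include 0, and 6 of 7 stress estimates lie below 0.

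No other gene of the pathway was called. Of 40 listed ligands, co-receptors and downstream genes 39 were tested. Flrt3, a Robo1 co-receptor gene, was listed at 0 in every library, and whether its RNA was absent was not tested. For the knockdown label over both stress states 22 estimates were above 0 and 17 below (median log2 fold change 0.03, beside -0.02 over all genes), and 0 passed. The smallest unadjusted p was that of Pak1, a kinase activated by Rac and Cdc42, at -0.22 ± 0.09 (SE, unadjusted p = 0.0203, adjusted p = 1 by edgeR). For stress over both viruses 13 were above 0 and 26 below (median -0.07, beside -0.01), and 0 passed. The smallest unadjusted p was that of the ligand gene Slit3, at -0.35 ± 0.17 (unadjusted p = 0.043, adjusted p = 1 by edgeR). The ligand genes Slit1 and Slit2 had stress estimates of -0.40 ± 0.30 and -0.23 ± 0.20. Above 0, the smallest unadjusted p for stress was that of Cxcr4, a chemokine receptor gene, at 0.61 ± 0.36 (SE, unadjusted p = 0.101, adjusted p = 1 by edgeR). For the knockdown label it was that of Ntn1, which encodes the guidance cue netrin-1, at 0.37 ± 0.24 (SE, unadjusted p = 0.138, adjusted p = 1 by edgeR).

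The sample number separated 4 of the 7 genes, a share beside which 55.3% of all genes passed the same test. Robo1, Robo2 and Srgap2 were higher and Srgap3 was lower in libraries numbered above 20. Robo2 averaged 659.8 ± 243.5 CPM above 20 and 435 ± 155 CPM up to 20 (SD, n = 13 and 15), a log2 difference of 0.65 ± 0.20 (SE, adjusted p = 0.00875 by edgeR). Srgap2 averaged 366 ± 49.2 CPM above 20 and 285 ± 57.5 CPM up to 20 (log2 difference 0.38 ± 0.11, adjusted p = 0.00555 by edgeR). Robo1 had 0.42 ± 0.15 (adjusted p = 0.0198 by edgeR), and missed the threshold without LacZ unstressed replicate 7 (adjusted p = 0.0701 by edgeR). Srgap3 had -0.37 ± 0.13 (adjusted p = 0.019 by edgeR). Robo3 at -0.69 ± 0.33 and Robo4 at -0.47 ± 0.26 did not pass (adjusted p = 0.0732 and 0.122 by edgeR), nor did Srgap1 at 0.02 ± 0.16. Scaling by total counts in place of TMM lowered the median of all genes by 0.27 on the log2 scale and changed 3 of these calls. Robo1 and Srgap2 then had 0.13 and 0.10 and no longer passed (adjusted p = 0.289 and 0.264 by edgeR). Robo3 then passed at -1.02 (adjusted p = 0.0194 by edgeR), and Robo2 and Srgap3 passed under both scalings. DESeq2 called these 4 and also Robo3 (adjusted p = 0.0444).

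Across the 28 libraries the genes moved together in blocks. One axis, the first principal component of the log2 CPM values, took up 58.8% of their variance. The correlation of each gene with it followed the GC content of its transcripts over 19120 genes (Pearson's r = 0.747 across genes, which are not independent replicates). Transcript GC was 42.4% for Robo2, 48.7% for Srgap2, 49.4% for Srgap1, 49.5% for Robo1, 50.6% for Srgap3, 54.9% for Robo4 and 57.7% for Robo3, around a median of 48.7% over tested genes. With the component, r was -0.93 for Robo2, -0.86 for Srgap2, -0.70 for Robo1, 0.69 for Srgap3 and 0.84 for Robo4 (n = 28, adjusted p from 4.67e-05 to 0.00028 by permutation). Robo3 and Srgap1 had r = 0.39 and 0.31 (permutation adjusted p = 0.0725 and 0.166). Srgap1 and Robo1 have nearly the same transcript GC and had r = 0.31 and -0.70. With the genes on total counts and the same component, r was -0.13 for Srgap2, -0.22 for Robo1, -0.86 for Robo2, 0.58 for Robo3, 0.68 for Srgap1, 0.90 for Robo4 and 0.91 for Srgap3. Spearman's rank correlation (rank r) for the same genes ran between -0.92 for Robo2 and 0.84 for Robo4. Without LacZ unstressed replicate 1 and KD unstressed replicate 7, the farthest along the component, r was -0.92 for Robo2 and 0.81 for Robo4. Within libraries numbered above 20 and up to 20, r was -0.94 and -0.88 for Robo2 and 0.92 and 0.81 for Robo4.

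Of the 21 pairs of the 7 genes, 12 were correlated over the libraries, 6 positively and 6 negatively (100000 permutations, Benjamini-Hochberg over 21 pairs). Robo1, Robo2 and Srgap2 formed the positive block. Robo1 and Robo2 had r = 0.76 and rank r = 0.71, Robo1 and Srgap2 r = 0.78 and rank r = 0.83, and Robo2 and Srgap2 r = 0.80 and rank r = 0.78 (permutation adjusted p = 5.25e-05 each, for r, each raw p being the smallest the permutations can give). Robo4 ran against it, with r = -0.79 and rank r = -0.80 to Robo2 and r = -0.69 and rank r = -0.67 to Srgap2, and with Srgap3 (r = 0.61, rank r = 0.57). The points share libraries, depth and the component above, and the positive block did not hold with it removed or without TMM. The component removed here and below was recomputed after group means were taken out, and took up 61.7% of the remaining variance. With group means and the component removed, r was 0.33 for Robo1 and Robo2, 0.43 for Robo1 and Srgap2 and -0.16 for Robo2 and Srgap2, and none of the 3 passed. On total counts without TMM the same pairs had r = 0.24, 0.33 and 0.05. Robo2 and Robo4 kept r = -0.80 without TMM but had -0.19 with the component removed. Without the 2 libraries farthest from the median of the first-named gene, r was 0.68, 0.74, 0.77 and -0.75 for these 4 pairs. Within libraries numbered above 20 and up to 20, r was 0.66 and 0.69 for Robo1 and Robo2, 0.86 and 0.62 for Robo1 and Srgap2, 0.68 and 0.76 for Robo2 and Srgap2, and -0.90 and -0.67 for Robo2 and Robo4.

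With the group means and the component removed, 4 pairs passed, each with Srgap2 or Srgap3. Robo1 and Srgap3 had r = 0.71 (permutation adjusted p = 0.00105), Robo2 and Srgap3 0.57 (0.0144), Srgap1 and Srgap2 0.51 (0.0449) and Srgap2 and Srgap3 0.49 (0.0449). The permutations treated the remaining values as free, although group means and a component had been fitted out. These p-values can therefore be too small, and the pairs at 0.0449 may not pass once that is allowed for. Before that removal the same pairs had r = -0.10, -0.47, 0.00 and -0.39, so the sign of 3 of them turned. Srgap1 and Srgap3 had r = 0.49 and rank r = 0.35. Without KD unstressed replicate 2 and KD stressed replicate 2 r was 0.10, so on TMM-scaled values that relation rested on those libraries. On total counts r was 0.75 with all libraries, and on TMM-scaled values it was 0.71 and 0.17 within libraries numbered above 20 and up to 20.

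**Figure D4:**
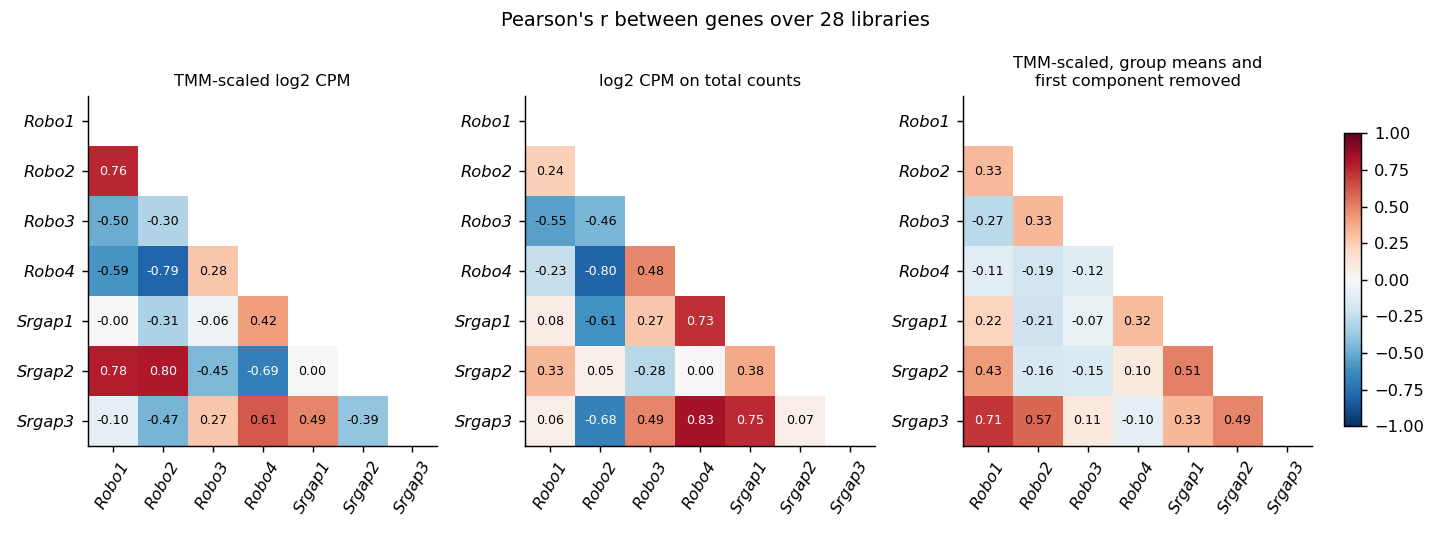
Pearson's r between the 7 genes over 28 libraries on TMM-scaled log2 CPM (left), on log2 CPM from total counts (middle), and on TMM-scaled log2 CPM with group means and the first component removed (right). The block of Robo1, Robo2 and Srgap2 has r between 0.76 and 0.80 on the left and between -0.16 and 0.43 on the right.

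Markers of cell types moved with some of the genes, and several lists did so at once. Robo4 followed the 16 endothelial genes, with r = 0.86 and rank r = 0.88 (n = 28, permutation adjusted p = 4.67e-05 over 56 relations, for r). Without LacZ stressed replicate 2 and LacZ unstressed replicate 5 r was 0.86, it was 0.86 and 0.83 within libraries numbered above 20 and up to 20, and 0.90 with Robo4 on total counts. With the group means and the component removed it was 0.52 (permutation adjusted p = 0.0221). Robo4 was also correlated with the microglia genes (r = 0.71, rank r = 0.68, permutation adjusted p = 0.00016) and with the mitochondrial share (r = -0.83, rank r = -0.82, permutation adjusted p = 4.67e-05). With the same removal these 2 had r = -0.09 and -0.36 (permutation adjusted p = 0.787 and 0.144). Without the 2 farthest libraries they had 0.67 and -0.79, and within libraries numbered above 20 and up to 20 the microglia genes had 0.76 and 0.61 and the mitochondrial share -0.84 and -0.78. The endothelial genes had a mean log2 CPM between 3.04 and 3.76 in KD stressed, between 2.80 and 3.75 in KD unstressed, between 2.84 and 3.91 in LacZ stressed and between 2.66 and 3.81 in LacZ unstressed libraries. They summed to between 261 and 448 CPM in KD stressed, between 317 and 552 in KD unstressed, between 291 and 445 in LacZ stressed and between 306.5 and 394 in LacZ unstressed libraries. The sum and the mean log2 CPM order the libraries differently: KD unstressed replicate 5 had the highest sum and 0.820 CPM of Robo4, while LacZ stressed replicate 2 had the highest mean. Their part in the Robo4 levels of the groups was not tested. Robo1 and Robo2 ran against the same genes, with r = -0.80 and rank r = -0.79 for Robo1 and r = -0.87 and rank r = -0.87 for Robo2 (permutation adjusted p = 4.67e-05 each). With the group means and the component removed r was -0.62 for Robo1 (permutation adjusted p = 0.00604) and -0.42 for Robo2 (0.0753). On total counts of the gene r was -0.44 for Robo1 and -0.81 for Robo2. Without the 2 farthest libraries it was -0.75 and -0.85. Within libraries numbered above 20 and up to 20 it was -0.80 and -0.78 for Robo1 and -0.85 and -0.91 for Robo2. The 10 tested microglia genes ran against both genes too, with r = -0.93 and rank r = -0.90 for Robo2 and r = -0.80 and rank r = -0.76 for Robo1 (permutation adjusted p = 4.67e-05 each). With the group means and the component removed these were -0.53 and -0.57 (permutation adjusted p = 0.018 and 0.0108), and with the gene on total counts -0.86 and -0.38. Without the 2 farthest libraries they were -0.91 and -0.74, and within libraries numbered above 20 and up to 20 they were -0.89 and -0.91 for Robo2 and -0.77 and -0.69 for Robo1. Srgap2 had r = -0.76 to the endothelial and -0.80 to the microglia genes, and -0.04 to each on total counts. The mitochondrial share was also correlated with Robo2 (r = 0.82), Srgap3 (-0.67), Srgap2 (0.64), Robo1 (0.58) and Srgap1 (-0.51). On total counts Robo1 had 0.10. With group means and the component removed only Srgap1 passed (r = -0.49, permutation adjusted p = 0.0421), near the threshold and with the limit given above. Its r was -0.29 without the 2 farthest libraries, and -0.82 and -0.09 within the same split.

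Robo3 moved with the excitatory neuron genes and against the striatal genes. It was positively correlated with the excitatory neuron genes (r = 0.62, rank r = 0.49, permutation adjusted p = 0.00137) and negatively with the 11 tested striatal genes (r = -0.64, rank r = -0.57, permutation adjusted p = 0.000395, n = 28). With the group means and the component removed r was 0.59 and -0.62 (permutation adjusted p = 0.00784 and 0.00686). The lowest Robo3 library, KD stressed replicate 7, had the highest mean log2 CPM of the striatal genes and the lowest of the excitatory neuron genes. Without it and KD unstressed replicate 6, r to the striatal genes was -0.53. Within libraries numbered above 20 and up to 20 it was -0.65 and -0.32. LacZ unstressed replicate 6 was kept in the value of -0.53. Its striatal mean log2 CPM was 4.26, beside 4.28 in KD unstressed replicate 6, and its Robo3 level of 1.48 CPM was the lowest of its group. To the excitatory neuron genes r was 0.43 without KD stressed replicate 7 and LacZ unstressed replicate 1, and 0.61 and 0.46 within the same split. The striatal genes summed to between 253 and 809 CPM in KD stressed, between 284 and 594.5 in KD unstressed, between 255 and 385 in LacZ stressed and between 267 and 508 in LacZ unstressed libraries. Their part in the Robo3 values for the knockdown label was not tested, and without KD stressed replicate 7 the stressed log2 fold change was -0.45, against -0.64 with it.

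Srgap3 followed the excitatory neuron genes as well (r = 0.69, rank r = 0.73, permutation adjusted p = 0.000187), with r = 0.60 after removal of the group means and the component (permutation adjusted p = 0.00784), 0.65 without the 2 farthest libraries, and 0.55 and 0.80 within libraries numbered above 20 and up to 20. Their mean log2 CPM, the measure behind r, had a median of 5.33 in KD stressed, 5.47 in KD unstressed, 5.51 in LacZ stressed and 5.54 in LacZ unstressed libraries. Those genes summed to a median of 1034 CPM in KD stressed, 1291 in KD unstressed, 1137 in LacZ stressed and 1282 in LacZ unstressed libraries. By either measure the median of the stressed group lay below that of the unstressed group with each virus, and their part in the stress value of Srgap3 was not tested. Robo2 and the same genes had r = -0.15 before and 0.77 after that removal (permutation adjusted p = 0.00049).

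**Figure D5:**
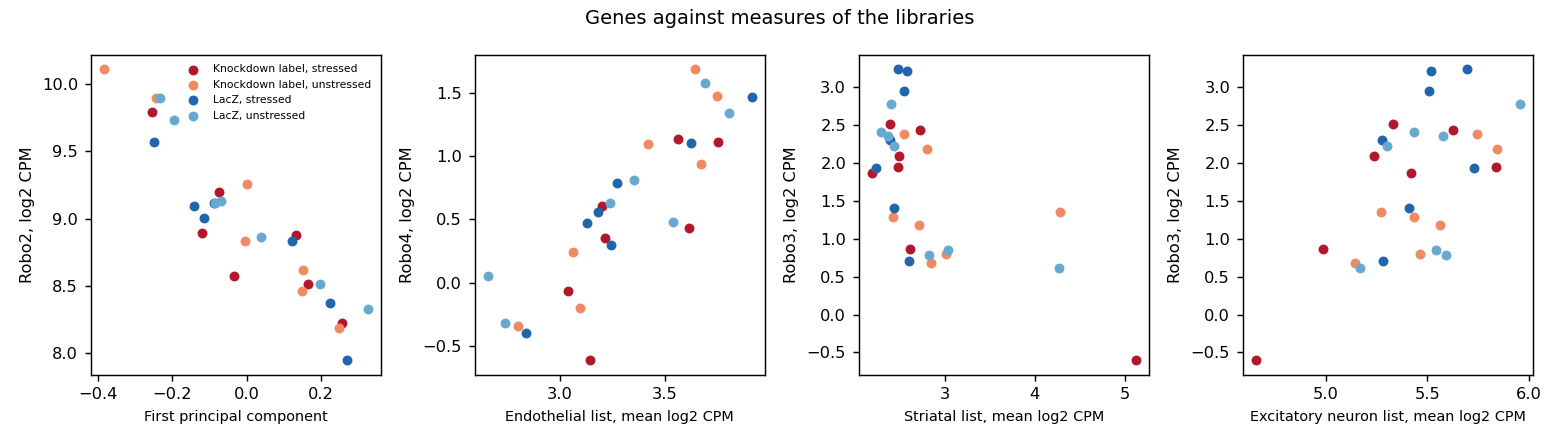
Log2 CPM of Robo2 against the first principal component, of Robo4 against the mean log2 CPM of the endothelial genes, and of Robo3 against those of the striatal and excitatory neuron genes, 1 point per library coloured by group. Robo2 falls along the component (r = -0.93), Robo4 rises with the endothelial genes (r = 0.86), and 1 library at the lower end of both Robo3 plots is KD stressed replicate 7.

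The genes most like each of the 7, by Pearson's r of log2 CPM over the 28 libraries with group means and the component removed, are named next. Robo1 was nearest to Nek10 (r = 0.92), Macrod2 (0.91) and Zmynd11 (0.90). Robo2 was nearest to Wnt7b (0.90), Strbp (0.89) and Rab27b (0.88). Robo3 was nearest to Tbc1d2 (0.86), Ovol2 (0.85) and Npnt (0.85), and Robo4 to Frmpd1 (0.75), Cyp4f13 (0.73) and Fabp12 (0.72). Fabp12 averaged 0.227 CPM and Tbc1d2 2.38 CPM, so counting error weighs on their values, most on those of Fabp12. Srgap1 was nearest to Rbms3 (0.90), Pard3 (0.88) and Ehmt1 (0.87), and Srgap2 to Xylt1 (0.87), Tmem150c (0.86) and Hmbox1 (0.85). Srgap3 was nearest to the semaphorin receptor gene Plxna4 (0.94), March4 (0.94) and Astn1 (0.94). These are the 3 highest values for each gene, and they are given as a description. With the component kept and only group means removed, Robo4 was again nearest to Frmpd1 (0.93), and the others were nearest to Zmynd11 (Robo1, 0.96), Rasal2 (Robo2, 0.99), Rab3ip (Robo3, 0.87), Samd4 (Srgap1, 0.88), Exoc4 (Srgap2, 0.97) and Pknox2 (Srgap3, 0.96).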

How the data were processed

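RNA of 28 vmPFC punches from female mice was sequenced after ribosomal depletion, 1 library per mouse. The deposited values are raw fragment counts per gene, made by the authors with featureCounts 1.6.2 over whole gene spans of Ensembl release 90 (GRCm38) with no strand option, although the kit keeps strand per the labels' protocols, on alignments named as free of duplicates, per the file headers. HISAT2, Subread and DESeq2 are also named in the submitters' processing notes. Intronic fragments and unspliced RNA therefore enter each level.

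Counts were fitted in edgeR 4.0.16 (R 4.3.3) by quasi-likelihood with TMM factors and filterByExpr, which left 19171 genes, over all 28 libraries with 4 group means and 7 contrasts. Benjamini-Hochberg adjustment ran over all genes, with a threshold of 0.05, and adjusted p-values are edgeR's unless said otherwise. The common biological coefficient of variation was 0.467. Log2 CPM used a prior count of 2. Relations over libraries used 100000 permutations (scipy 1.17.1). Replicate numbers follow accession order only. The fit was tested on simulated data. Alternatives were DESeq2 1.42.0, RLE factors, no filter, 2 surrogate variables (sva 3.50.0), the sample number above 20 as a covariate and the omission of each library. The difference by sample number was computed after the values were seen. P-values of the fit set a difference against the spread between mice. Those of the relations come from permuting all 28 libraries, regardless of group and sample number, and take the libraries as exchangeable. With group means or the component removed they do not allow for what was fitted out, and can be too small. The genes were taken by name, and they and the lists were chosen with earlier results of these data known. The named genes are the 7 members, and of the pathway list the Slit genes and the gene with the smallest p in each direction for virus and for stress, and the 3 tested genes most like each member. Protein sequences were not used here.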

Additional observations from a re-analysis of the deposited data

Results flagged for a closer look

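One library stood apart from its group. Srgap1 reached 75.9 CPM in KD unstressed replicate 2, while the next highest library of that group had 35.25 CPM. On the log2 scale the gap was 0.658 of the range of the group, above Dixon's 95% critical value for 7 samples. It was 1 of 28 gene and group combinations checked, and chance alone would flag about 1 in 20 such groups. The same library was also the highest of its group in Srgap3 (409 CPM) and in Robo4 (3.18 CPM). Without it the log2 fold change of Srgap1 was 0.14 for the knockdown label and -0.07 for stress, against 0.29 and -0.22 with it. The cause was not tested.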

How the results depend on the processing

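No setting called any gene for virus, stress or their interaction, and the smallest adjusted p of the 7 genes was 0.555 over 33 settings. Of 1617 alternative values 1511 kept their direction and 106 turned. With the sample number as a covariate, the knockdown value turned to -0.062 (Robo1), -0.24 (Robo2) and -0.12 (Srgap2) without stress, and to -0.11 (Robo2), 0.091 (Robo4) and -0.030 (Srgap2) over both states. The interaction turned to 0.13 (Robo1), 0.26 (Robo2) and 0.17 (Srgap2). With 2 surrogate variables the knockdown value of Srgap3 in stressed mice turned to 0.046 and the Robo2 interaction to 0.15. Without the filter the Robo2 interaction was 0.00746. The sample number difference of Srgap1 was -0.23 on total counts.

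Leaving out 1 library gave these ranges where a sign turned. For the knockdown without stress they were -0.19 to 0.19 (Robo2), -0.091 to 0.30 (Robo4), -0.028 to 0.36 (Srgap1), -0.027 to 0.13 (Srgap2) and -0.080 to 0.19 (Srgap3). With stress they were -0.068 to 0.13 (Robo1), -0.18 to 0.17 (Robo2), -0.031 to 0.10 (Srgap2) and -0.10 to 0.065 (Srgap3). Over both states they were -0.075 to 0.11 (Robo2), -0.14 to 0.052 (Robo4) and -0.045 to 0.10 (Srgap3). For stress they were -0.25 to 0.13 (Robo4, LacZ) and -0.33 to 0.10 (Srgap1, knockdown label). For the interaction they were -0.24 to 0.035 (Robo1), -0.21 to 0.23 (Robo2), -0.084 to 0.34 (Srgap1), -0.10 to 0.056 (Srgap2) and -0.19 to 0.068 (Srgap3). By sample number they were -0.075 to 0.079 for Srgap1, 9338 to 11390 genes called and 3 to 5 of the 7 genes called.

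With group means and the first component removed, 4 of 21 pairs passed in place of 12, and 11 relations to library measures in place of 20. The permutations did not allow for the fitted means and component, so the counts after removal can be too high. Of the 21 pairs 9 changed sign under that removal, 3 of which passed neither before nor after. The other 6 were Robo1 and Srgap3 (0.71), Robo2 and Srgap2 (-0.16), Robo2 and Srgap3 (0.57), Robo4 and Srgap2 (0.10), Robo4 and Srgap3 (-0.10) and Srgap2 and Srgap3 (0.49). The sign also turned for the mitochondrial share with Robo1 (-0.073) and Srgap2 (-0.44), excitatory neuron genes with Robo2 (0.77), astrocyte genes with Robo2 (0.047), microglia genes with Robo4 (-0.088) and Srgap3 (-0.72), and endothelial genes with Srgap3 (-0.58). On total counts r was 0.060 (Robo1 and Srgap3), 0.00085 (Robo4 and Srgap2), 0.066 (Srgap2 and Srgap3) and -0.11 (mitochondrial share and Srgap2). Srgap1 and Srgap2 had a Spearman correlation of -0.16, and r = -0.076 with group means removed and -0.13 without the 2 farthest libraries. The causes were not tested. The alternatives for the sample number were chosen after seeing the data. Counting error limits Robo4 and Robo3 most. No paired analysis was possible because the labels carry no replicate numbers.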
